A study of Mus musculus with 8 samples.

Results

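Collagen transcripts were examined in neutrophils isolated from the lungs of wild type mice, as measured on 8 Affymetrix Mouse Gene 1.1 ST arrays. A chain was included if a row of the deposited table mapped through its RefSeq identifier to a symbol made of Col, a number, the letter a and a number. Of 44 such symbols in the RefSeq table, 43 had a matched row, among 19836 distinct symbols measured. Col6a2 had none. The chains were 11 fibrillar collagens, the 6 chains of type IV collagen of basement membranes, and 26 others.

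The 4 samples of the PBS group came from mice given phosphate-buffered saline, and the 4 samples of the SP group from mice given Streptococcus pneumoniae, the bacterium most often found in community-acquired pneumonia. The left lung of an anesthetized mouse received a dose of 2.3 µl/g, and lungs were taken 24 h later. The sample labels give all mice as 6 to 12 weeks of age. The study's methods state a narrower age range and give the strain as C57BL/6J. Lungs were digested with collagenase and dispase, enzymes that cut collagen and other matrix proteins, and cells that carried Ly6G, a neutrophil surface protein, were retained on a magnetic column. The methods describe a microscopic check of purity for the pneumonia samples, in which the few other cells looked mostly like alveolar macrophages, and high Ly6G transcript in all samples. No such microscopic check is described for the PBS samples. Labels number the replicates within a group without saying that each was a separate mouse, so p-values measure the spread between these samples.

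Collagens are secreted proteins in which chains wind around each other as a triple helix. Fibrillar collagens assemble into the fibres that give the lung tensile strength, type IV collagen forms the sheet on which epithelium and endothelium rest, and smaller families decorate fibrils, anchor cells or link both systems. In the lung they are made chiefly by fibroblasts, smooth muscle cells, pericytes, endothelial cells and epithelial cells, and neutrophils are known for degrading collagen rather than for making it. A chain must be hydroxylated, folded and trimmed by dedicated enzymes before it can be built into matrix.

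Log2 values of 24625 rows were compared. Array medians were 6.06 to 6.20 in the PBS group and 5.78 to 5.91 in the SP group, and arrays of a group correlated across rows at 0.979 to 0.997 and 0.970 to 0.995, respectively. As a measure of background, the 1282 rows of olfactory and vomeronasal receptors, genes used mainly by sensory neurons of the nose, were taken. Their 95th percentile was 5.42 in PBS and 5.77 in SP, and a chain with a mean at or under both limits is called near background here. The receptor rows themselves were higher in SP by a median of 0.20 log2, and 257 of them passed an adjusted p of 0.05 in that direction, with the highest receptor median on SP replicate 3 (5.08, beside 4.84 to 4.86 on the other SP arrays). The central 95% of receptor differences ran from -0.0013 to 0.55.

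Collagen chains differed in both directions between PBS and SP, and the balance depended on scaling. Of 43 chains, 6 were lower in SP, 9 were higher and 28 did not pass an adjusted p of 0.05 by limma. Among all rows 22.6% were lower and 21.5% higher, and neither share of the chains exceeded these. The counts were 3 lower and 24 higher with arrays centred on their median, and 8 lower and 3 higher with arrays centred on the receptor rows. These scalings also moved the median difference of all rows, to 0.38 and -0.11, respectively. The shares of all rows called under them are not given here, so these counts cannot be read as particular to collagens. At 2-fold or more, 1 chain was lower (Col14a1), beside 11.3% of all rows, and 1 was higher (Col15a1), beside 6.37% of all rows. The median difference between SP and PBS was 0.14 log2 over the collagens and 0.10 over all rows. It was 0.21 over the fibrillar chains, and this turned to -0.0029 when arrays were centred on the receptor rows and to -0.38 over the 3 chains left without dim rows. It was -0.52 over the type IV chains, which turned to 0.17 over the 2 chains left without dim rows. It was 0.15 over the others, which turned to -0.063 when arrays were centred on the receptor rows. Of the 43 chains, 16 lay above background in at least 1 group and 27 did not. These 27 chains near background included 7 of the 9 higher chains and 1 of the 6 lower chains.

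**Figure D1:**
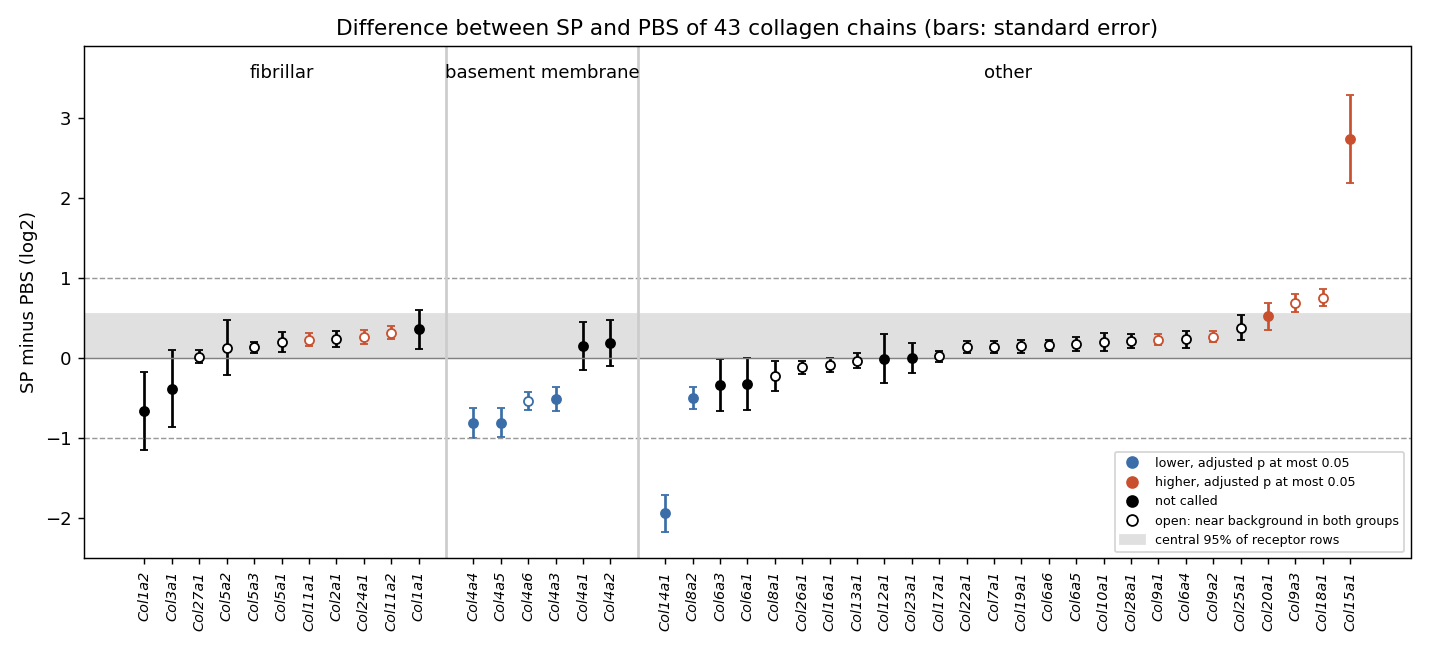
Difference between the SP and PBS means of each collagen chain on the log2 scale, ordered within 3 classes; bars are the standard error from limma (n = 4 and 4), dashed lines mark 2-fold, and the grey band holds the central 95% of receptor rows (-0.0013 to 0.55). Col14a1 (-1.94) and Col15a1 (2.73) lie beyond the dashed lines, and most open points, chains near background, lie inside the band.

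Transcripts of other lung cells were present in these preparations and differed between the groups. The neutrophil list was bright on every array, with a mean over its 11 genes of 12.2 to 12.5 in PBS and 11.7 to 12.8 in SP. Of its members, 3 were lower (beside 22.6% of all rows) and none passed 2-fold, and each of these 3 calls was lost under at least 1 alternative. Of 11 measured fibroblast markers, 4 were lower in SP by 2-fold or more (beside 11.3% of all rows) and 7 were not called. The mean of the list was 7.66 to 8.31 in PBS and 6.62 to 7.87 in SP. The brightest were Dcn, a small proteoglycan bound to collagen fibrils, at a difference of -1.85 log2, and Inmt, an enzyme of lung fibroblasts, at -3.10. Differences in the fibroblast list ran from -3.10 to 0.92, with a median of -0.81. Endothelial markers were lower in 9 of 11 cases, beside 22.6% of all rows, with Calcrl at -1.63 and Cdh5 at -0.99. The mean of that list was 10.2 to 11.2 in PBS and 8.61 to 9.78 in SP. All 7 markers of alveolar type 2 cells and 4 of 6 markers of type 1 cells were lower, beside the same 22.6% of all rows. So were 4 of 10 markers of smooth muscle and pericytes and all 4 measured mesothelial markers. Some of these calls were lost under at least 1 alternative, even without counting a test against a 2-fold threshold (limma treat). By that count 3 of 7 were lost for type 2 cells (among them Sftpa1 and Lamp3) and 2 of 4 for smooth muscle and pericytes. For endothelium it was 2 of 9 and for fibroblasts 1 of 4. Differences ran from -1.69 to 0.36 for smooth muscle and pericytes and from -2.45 to 0.44 for type 1 cells. No marker of either list was called higher. In samples of many cells, fewer cells of a type and less RNA per cell cannot be told apart. How far these markers account for the collagen values was not tested.

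Fibrillar collagen was carried by 3 chains, and none of them was called. Type I collagen, the main fibre of the lung interstitium, is built from Col1a1 and Col1a2, and type III collagen, which runs with it in vessel walls and alveolar septa, from Col3a1 alone. Values of Col1a1 were 8.38, 7.87, 7.80 and 7.49 in PBS replicates 1 to 4 and 7.99, 8.17, 7.96 and 8.86 in SP replicates 1 to 4, a difference of 0.36 log2 (SE 0.24, limma adjusted p 0.235). The groups overlapped, and the call depended on scaling: the difference was 0.65 (adjusted p 0.0214) with arrays centred on their median and 0.66 (adjusted p 0.0384) after a further quantile normalization.

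Col1a2 gave 8.39, 7.71, 7.74 and 7.29 in PBS and 6.95, 7.32, 5.84 and 8.38 in SP. SP replicate 3 was the lowest of all 8 arrays, while SP replicate 4 reached the top of the PBS range. With this spread, the difference of -0.66 log2 (SE 0.49) had an adjusted p of 0.274 by limma. Col3a1 followed the same arrays, at 8.23, 7.56, 8.10 and 7.35 in PBS and 7.51, 7.65, 6.01 and 8.54 in SP, with a difference of -0.38 log2 (SE 0.48, adjusted p 0.516). Without SP replicate 3 its difference was 0.090 log2, so its sign rested on 1 library.

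Promoter sequence is printed for these last chains because they put the 4 arrays of each group in the same order. Windows of 250 bases before the start site come from RefSeq on GRCm38.p6, were given for 34 of the 43 chains, and were searched on either strand. Entries were missing for Col1a1, Col2a1, Col4a3, Col5a2, Col9a3, Col12a1, Col14a1, Col22a1 and Col26a1. The Col1a2 window (chr6:4505368-4505617, plus strand) is shown with GGGCGG, the core of a GC box, and CCAAT in capitals, and the Col3a1 window (chr1:45311288-45311537, plus strand) with TATAAA in capitals.
Col1a2: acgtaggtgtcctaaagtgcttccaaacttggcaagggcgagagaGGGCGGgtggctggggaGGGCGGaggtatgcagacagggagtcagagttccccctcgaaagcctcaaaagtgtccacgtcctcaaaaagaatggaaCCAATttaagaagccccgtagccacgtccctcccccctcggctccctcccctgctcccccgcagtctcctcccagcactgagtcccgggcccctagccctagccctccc
Col3a1: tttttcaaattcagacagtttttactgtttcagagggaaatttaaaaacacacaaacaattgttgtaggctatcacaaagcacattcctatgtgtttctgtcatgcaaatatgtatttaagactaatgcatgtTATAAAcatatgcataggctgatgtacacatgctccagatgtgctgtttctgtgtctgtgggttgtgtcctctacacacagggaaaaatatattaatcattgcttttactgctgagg
The windows differ in composition, with 62.0% of G and C for Col1a2 and 35.2% for Col3a1, beside a median of 52.4% over 32851 windows of the genome. They share none of the 3 motifs. TATAAA was found in 12.4% of all windows, CCAAT in 33.9% and GGGCGG in 32.7%, and in 5, 13 and 22 of 38 windows of collagen genes, respectively.

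The remaining 8 fibrillar chains lay near background. They comprise Col5a1, Col5a2 and Col5a3, which start fibril assembly, the cartilage chains Col2a1, Col11a1 and Col11a2, and Col24a1 and Col27a1. Col5a2 was near background by its means only, at 6.59 on SP replicate 4 and 4.83 to 5.22 on the other SP arrays. Col11a1 (0.23 log2), Col11a2 (0.32) and Col24a1 (0.27) passed the test as higher in SP, all within the band of the receptor rows. With arrays centred on the receptor rows they were at 0.02 (adjusted p 0.810), 0.11 (0.440) and 0.06 (0.590). Of 10 chondrocyte markers, 6 were near background in both groups, among them Acan, Matn1 and Comp. Chad, at 10.2 in PBS and 5.72 in SP, and Cytl1 (-0.94 log2) were lower, beside 22.6% of all rows. Matn1 (0.35) and Snorc (0.30) were higher, beside 21.5% of all rows, and lay within the band of the receptor rows. The calls of Cytl1, Matn1 and Snorc were lost under at least 1 alternative. Cytl1 was at -0.54 after quantile normalization (limma adjusted p 0.175). With arrays centred on the receptor rows Matn1 was at 0.14 (adjusted p 0.374) and Snorc at 0.09 (0.416).

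The chains of type IV collagen differed in whether they were called. Changes of called and uncalled chains were not tested against each other. Col4a1 and Col4a2, the pair that builds nearly every basement membrane, were not called, and Col4a3, Col4a4, Col4a5 and Col4a6, which build the membranes of alveolus, kidney and smooth muscle, were all lower in SP, with no overlap between the groups. These 4 of 6 chains stand beside 22.6% of all rows lower, and the share of all rows without overlap is not given here. Their PBS levels were modest, and in SP each had a mean under the background limit of that group, so the background limits the size of the fall that could be measured.

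Values of Col4a1 were 7.87, 8.46, 7.60 and 7.45 in PBS and 7.69, 7.89, 7.61 and 8.80 in SP, a difference of 0.15 log2 (SE 0.30, adjusted p 0.683). Col4a2 gave 7.91, 8.23, 7.61 and 7.55 in PBS and 7.83, 8.03, 7.41 and 8.79 in SP, a difference of 0.19 log2 (SE 0.28, adjusted p 0.583). Both signs turned with arrays centred on the receptor rows (-0.057 and -0.019). Within each group the arrays stood in the same order for both chains, with SP replicate 4 on top. Their genes lie head to head on chromosome 8, with start sites 21 bases apart on opposite strands. The stretch just before the Col4a2 start (chr8:11312768-11312797, GRCm38.p6, plus strand), which lies within the transcribed start of Col4a1, is printed with its CCAAT in capitals.
Col4a2: gctccCCAATttgttggcgctgccccctcc
The window of Col4a2 held 73.6% of G and C.

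Col4a4 gave 5.99, 6.35, 5.74 and 5.69 in PBS and 5.38, 4.90, 5.36 and 4.90 in SP. It was lower by 0.81 log2 (SE 0.18, limma adjusted p 0.00808). Against the SP background limit the fall of the mean was at least 1.13-fold, a bound that makes no allowance for the spread between arrays. For Col4a3, Col4a5 and Col4a6 no lower limit can be given, since their PBS means also lay under that limit. Col4a5 gave 5.65, 6.20, 5.35 and 5.49 in PBS and 4.94, 4.64, 4.94 and 4.96 in SP, a difference of -0.81 log2 (SE 0.18, adjusted p 0.00790). For Col4a3 the means were 5.55 ± 0.32 in PBS and 5.04 ± 0.06 in SP (SD, n = 4), a difference of -0.50 log2 (adjusted p 0.0264). That call was lost with arrays centred on their median (-0.22, adjusted p 0.172) and on leaving out PBS replicate 1 or SP replicate 1, 2 or 4 (-0.51 to -0.48, adjusted p 0.0536 to 0.0660). Col4a6 was at 5.42 ± 0.22 and 4.89 ± 0.09, just at the PBS limit, with a difference of -0.54 log2 (adjusted p 0.00636), and its call was lost with arrays centred on their median (-0.25, adjusted p 0.0788). Markers of alveolar type 1 cells, whose basement membrane carries Col4a3, Col4a4 and Col4a5, were lower in the same samples (list mean 9.90 to 10.8 in PBS and 8.47 to 9.51 in SP), and their part in these values was not tested.

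**Figure D2:**
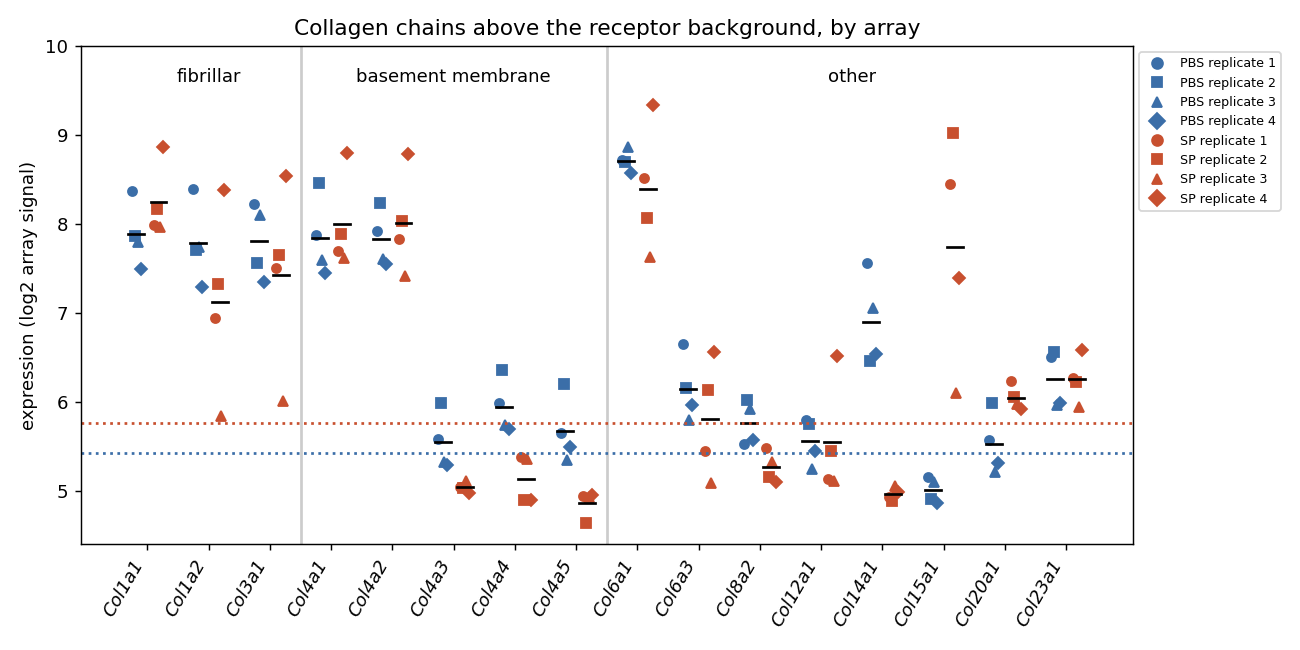
Log2 signal of the 16 collagen chains above background in at least 1 group, for each of 4 PBS (blue) and 4 SP (red) arrays, with black lines at group means and dotted lines at the background limits (5.42 in PBS, 5.77 in SP). The groups are apart for Col14a1, Col15a1, Col4a3, Col4a4, Col4a5 and Col8a2, and SP replicate 4 (red diamonds) tops most of the bright chains. The share of all rows with groups apart is not given here.

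The chain with the largest fall was Col14a1. Type XIV collagen belongs to the FACIT family, collagens with interrupted helices that sit on the surface of fibrils rather than forming them, and it is a marker of a subset of lung fibroblasts. Values were 7.56, 6.45, 7.05 and 6.53 in PBS and 4.93, 4.89, 5.05 and 4.99 in SP, so that every SP array lay under the background limit and every PBS array above it. It was lower by 1.94 log2 (SE 0.23, limma adjusted p 0.000295), and at least 2.19-fold lower against the SP background limit. Leaving out any 1 array gave differences of -2.09 to -1.72 with an adjusted p of at most 0.00171.

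Other FACIT chains did not share this fall. Col12a1, the closest relative of Col14a1 and a companion of type I fibrils, was at 5.56 ± 0.26 in PBS and 5.55 ± 0.66 in SP (SD, n = 4; difference -0.01 log2, adjusted p 0.984), with SP replicate 4 at 6.51 and the other SP arrays at 5.11 to 5.45. Col20a1 was at 5.52 ± 0.34 and 6.05 ± 0.13, higher by 0.53 log2 (adjusted p 0.0343). Its groups overlapped, and the call was lost with arrays centred on the receptor rows (0.32, adjusted p 0.242) and on leaving out PBS replicate 1, 3 or 4 or SP replicate 1 or 2 (0.42 to 0.54, adjusted p 0.0672 to 0.0880).

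Col15a1 had the largest rise of all the chains. Types XV and XVIII collagen form the multiplexin family, proteoglycans of the basement membrane zone whose C-terminal fragments, restin and endostatin, act on blood vessels. Col15a1 gave 5.15, 4.91, 5.10 and 4.87 in PBS and 8.45, 9.02, 6.10 and 7.39 in SP. All PBS arrays were in the range of the receptor rows and all SP arrays were above it, but SP values were widely spread, with SP replicate 3 lowest. The difference was 2.73 log2 (SE 0.55, limma adjusted p 0.00466), and the SP mean lay 4.99-fold above the PBS background limit. The difference ranged from 2.31 to 3.28 on leaving out each array, with an adjusted p of at most 0.0165. Against a threshold of 2-fold (limma treat) the adjusted p was 0.0895.

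Col18a1, the other multiplexin, gave 4.98, 5.02, 4.98 and 4.93 in PBS and 5.62, 5.53, 5.78 and 6.00 in SP. It was higher by 0.75 log2 (SE 0.11, adjusted p 0.000757), with no overlap, although its SP mean of 5.73 stayed just under the background limit. It is one of 2 chains near background whose rise was beyond the band of the receptor rows. The other was Col9a3, at 4.92 ± 0.10 in PBS and 5.61 ± 0.20 in SP (0.69 log2, adjusted p 0.00165). Its cartilage partners Col9a1 (0.23) and Col9a2 (0.27) also passed, but within the band, and were at 0.02 and 0.06 with arrays centred on the receptor rows.

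Type VI collagen, which forms beaded filaments around cells and is built from Col6a1, Col6a2 and Col6a3, was not called. Col6a1 gave 8.72, 8.69, 8.86 and 8.57 in PBS and 8.52, 8.06, 7.63 and 9.33 in SP, a difference of -0.32 log2 (SE 0.32, adjusted p 0.407). The PBS arrays were close together and the SP arrays lay on both sides of them. Without SP replicate 4 the difference was -0.64 log2 (adjusted p 0.0354). Col6a3 gave 6.66, 6.16, 5.79 and 5.97 in PBS and 5.45, 6.14, 5.09 and 6.56 in SP, a difference of -0.33 log2 (SE 0.33, adjusted p 0.403). Col6a4, Col6a5 and Col6a6 were near background and not called.

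Of the short-chain network collagens, Col8a2, a chain of the type VIII lattice around vessels and in the cornea, was lower. It was at 5.76 ± 0.25 in PBS and 5.27 ± 0.17 in SP (-0.49 log2, adjusted p 0.0222), with both means under the SP background limit, a call lost with arrays centred on their median (-0.21, adjusted p 0.233) and on leaving out PBS replicate 2 or 3 or SP replicate 2 or 4 (-0.46 to -0.41, adjusted p 0.0504 to 0.0561). Its partner Col8a1 and the growth plate chain Col10a1 were near background and not called. The transmembrane chain Col23a1 gave 6.50, 6.56, 5.97 and 5.99 in PBS and 6.27, 6.22, 5.95 and 6.58 in SP, a difference of 0.00 log2 (SE 0.18, adjusted p 0.998). Near background and not called were also the transmembrane chains Col13a1, Col17a1 of hemidesmosomes and Col25a1, Col7a1 of anchoring fibrils, Col26a1, Col28a1, and the FACIT chains Col16a1, Col19a1 and Col22a1. Their differences ran from -0.12 to 0.38.

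The SP arrays stood in a shared order for many of the bright chains. Of the 16 chains above background, 10 were highest on SP replicate 4 among the SP arrays and 10 were lowest on SP replicate 3, with 9 doing both. For chains near background, 18 of 27 were highest on SP replicate 3, the array on which the receptor rows were also highest. Markers of other cells stood in the order of the bright chains: 8 of 11 fibroblast markers, 9 of 10 of smooth muscle and pericytes and 9 of 11 of endothelium were highest on SP replicate 4, and 6, 7 and 9 markers of these lists were lowest on SP replicate 3. For neutrophil markers it was SP replicate 3 on which 10 of 11 were highest. Whether the share of other cells sets the order of the collagens was not tested. Col14a1 and Col4a4 did not follow this order, with SP replicate 3 highest for Col14a1 and SP replicate 1 for Col4a4.

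**Figure D3:**
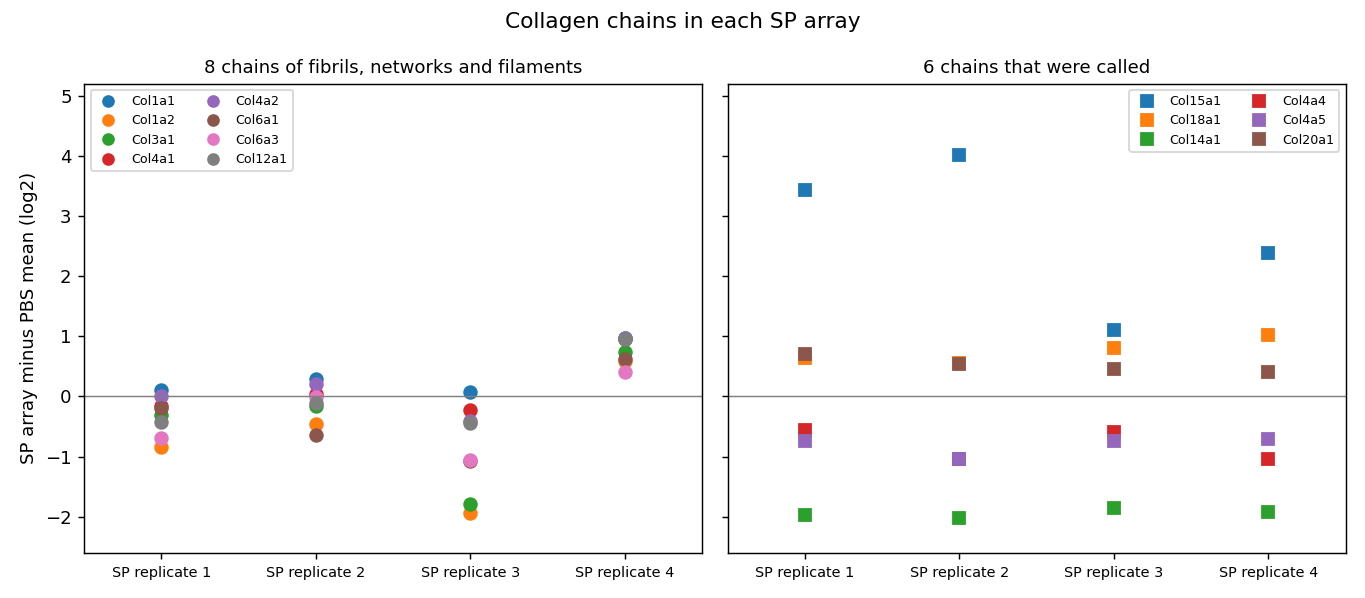
Each SP array's log2 value less the PBS mean, for 8 chains of fibrils, networks and filaments (left) and 6 called chains (right); 1 point per chain and array. On the left, all points of SP replicate 4 lie above 0 and those of SP replicate 3 reach furthest down, while on the right Col14a1 lies below the other chains on all 4 arrays.

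Chains built into 1 trimer were then asked whether they had changed by different amounts. For each pair the difference of the log2 values within an array was compared between groups by an exact two-sided permutation test over 70 arrangements, which compares changes and not levels. Of 10 pairs, 3 had the smallest p that the design allows (exact p 0.0286, adjusted p 0.0952 over the 10 pairs), and none passed after adjustment. The largest gap was between Col1a1 and Col1a2, whose within-array difference was -0.01, 0.16, 0.05 and 0.20 in PBS and 1.04, 0.85, 2.12 and 0.49 in SP. It was higher by 1.03 log2 in SP with no overlap, SP replicate 3 being farthest out and SP replicate 4 closest to PBS. The other pairs were Col4a3 with Col4a4 (0.31 log2) and Col9a2 with Col9a3 (-0.42). The former chains were both under background in SP and the latter near it in both groups, which limits how far these gaps measure unequal change. No difference was detected between the changes of Col4a1 and Col4a2 (-0.04 log2, exact p 0.657) or of Col4a4 and Col4a5 (-0.004, exact p 1), the latter both under background in SP. For Col4a4 and Col4a5 the within-array SD was 0.11 in PBS and 0.23 in SP, so shifts of that size would not have been seen. On leaving out each array the gap between Col1a1 and Col1a2 was 0.70 to 1.24 log2. Groups that are apart with all 8 arrays cannot overlap on leaving 1 out, so their separation was not tested by this. The number of pairs at an unadjusted p of 0.05 or less was then 0 without PBS replicate 1, 2 or 4 and 1 without PBS replicate 3. With 3 arrays in the less variable group, groups that are fully apart can miss that threshold.

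**Figure D4:**
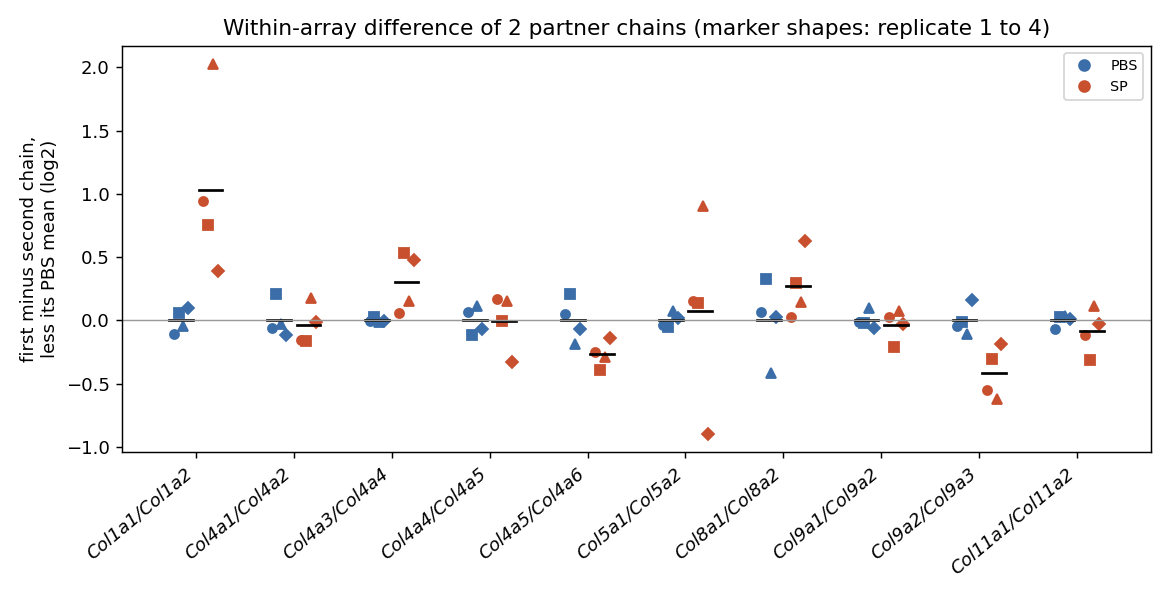
Within-array difference of the log2 values of partner chains, less its PBS mean, for 10 pairs in 4 PBS (blue) and 4 SP (red) arrays; black lines are group means. SP arrays lie wholly above PBS for Col1a1/Col1a2 and Col4a3/Col4a4 and wholly below for Col9a2/Col9a3.

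Genes that make, trim, bind and degrade collagen were compared in 5 lists. Of 18 genes of hydroxylation and folding, 8 were lower and 1 higher, beside 22.6% and 21.5% of all rows. At 2-fold 5 were lower, beside 11.3% of all rows. These were the prolyl 3-hydroxylase P3h2 (-2.43 log2), P3h4 (-1.54), a related protein of the hydroxylation complex, the prolyl 4-hydroxylase subunit P4ha2 (-1.40), the glycosyltransferase Colgalt2 (-1.15) and Crtap (-1.06), a partner of prolyl 3-hydroxylase. Against the SP background limit the falls were at least 2.72-fold for P3h2, 2.39-fold for P4ha2 and 1.33-fold for Colgalt2. Crtap was lost on leaving out any PBS replicate or SP replicate 1 or 2 (-1.11 to -0.99, adjusted p 0.0677 to 0.1000). Ppib and P4hb, with the highest means over all arrays, serve many secreted proteins and differed by -0.35 and -0.06. Ppib, Plod3 (-0.51) and Mia3 (-0.34) were called lower. These calls were lost with arrays centred on their median (limma adjusted p 0.598, 0.174 and 0.604). The higher gene was Colgalt1 (0.63), a call lost with arrays centred on the receptor rows (adjusted p 0.0514). Serpinh1, the chaperone specific to collagen, was at 7.98 in PBS and 6.81 in SP, with an adjusted p of 0.0504.

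In the list of propeptide processing and crosslinking, 5 of 13 genes were lower (beside 22.6% of all rows), 4 of them at 2-fold (beside 11.3%), and 1 was higher (beside 21.5%). The higher gene was Adamts3 (0.46), near background, a call lost after quantile normalization (limma adjusted p 0.158). The gene lower by less was Tll1 (-0.42), also near background, a call lost with arrays centred on their median (limma adjusted p 0.340). Pcolce (-2.59) and Pcolce2 (-2.35) enhance the removal of the C-terminal propeptide of fibrillar chains, and Bmp1 (-1.27) is the protease that removes it. Pxdn (-1.48), a peroxidase, forms the sulfilimine bonds of type IV collagen. Lox, the lysyl oxidase that crosslinks fibrils, had a difference of 1.24 log2 and was not called (SE 0.53, adjusted p 0.0869). Pcolce was at 10.1 ± 0.20 in PBS and 7.53 ± 0.93 in SP (SD, n = 4), with no overlap, and the fall of Pcolce2 was at least 4.97-fold against the SP background limit.

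Among 9 measured collagen receptors, 4 were lower at 2-fold (beside 11.3% of all rows), 1 was higher at 2-fold (beside 6.37%) and 1 was higher by less. At any size, 21.5% of all rows were higher. Ddr1 (-2.58) and Ddr2 (-1.21) are tyrosine kinases that collagen activates, Itga1 (-1.19) is a collagen-binding integrin chain of mesenchymal and immune cells, and Mrc2 (-1.08) takes up collagen fragments. The fall of Mrc2 was at least 1.83-fold against the SP background limit. The call of Itga1 was lost without PBS replicate 1 or 2 (-1.05 and -1.04, adjusted p 0.0581 and 0.0521), and that of Ddr2 on leaving out PBS replicate 1, 2 or 3 or any of SP replicates 1 to 3 (-1.26 to -0.95, adjusted p 0.0593 to 0.0954). Lair1, an inhibitory receptor of leukocytes for collagen, rose from 7.89 ± 0.55 to 9.76 ± 0.60 (1.87 log2, adjusted p 0.00318), with no overlap. Itgb1, the shared chain of the collagen-binding integrins, was higher by 0.69 log2 (adjusted p 0.0139), a call lost after quantile normalization (0.46, adjusted p 0.122) and with arrays centred on the receptor rows (0.48, adjusted p 0.124).

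Of 9 genes of collagen breakdown, 3 were higher at 2-fold (beside 6.37% of all rows) and 2 were lower by less (beside 22.6% lower at any size). Fap, a surface protease of activated fibroblasts that cleaves denatured collagen, had a mean of 4.66 ± 0.15 in PBS, in the range of the receptor rows, and 8.89 ± 0.38 in SP (4.23 log2, SE 0.18), at least 11.1-fold higher against the PBS background limit. Mmp14, a membrane-bound collagenase, rose by 2.25 log2. Mmp13, a secreted collagenase, was at 4.64 in PBS, under the background limit, and 6.12 in SP, a measured rise of 1.48 log2 that was at least 1.62-fold against that limit. Mmp8, the collagenase stored in neutrophil granules, was at 13.3 ± 0.11 and 12.6 ± 0.58 (-0.76 log2, adjusted p 0.0426), and Mmp9, a gelatinase of the same cells, at 12.9 ± 0.12 and 12.3 ± 0.36 (-0.59, adjusted p 0.0238). Both of these calls were lost with arrays centred on their median. They were also lost on leaving out single arrays, for Mmp8 any but SP replicate 3 (-0.81 to -0.60, adjusted p 0.0581 to 0.105) and for Mmp9 PBS replicate 3 or 4 or SP replicate 1 or 2 (-0.56 to -0.48, adjusted p 0.0544 to 0.0657).

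Of 15 other basement membrane proteins, 5 were lower (beside 22.6% of all rows), 4 of them at 2-fold (beside 11.3%), and 1 was higher (beside 21.5%). The gene lower by less was Nid2, a call lost with arrays centred on their median (-0.12, limma adjusted p 0.428). The laminin chains Lama3 (-2.03), Lamb2 (9.25 in PBS and 7.25 in SP), Lama5 (-1.61) and Lama2 (-1.08) were lower, and Lamb3, which pairs with Lama3 in the laminin of epithelial anchorage, was higher by 1.20 log2 (adjusted p 0.000320). The genes of the list with the highest mean over all 8 arrays, Agrn (0.31) and Nid1 (-0.03), were not called. Against the SP background limit the falls were at least 2.59-fold for Lama3 and 1.69-fold for Lama2. The call of Lama2 was lost on leaving out PBS replicate 1 or 2 or SP replicate 1 or 3 (-1.01 to -0.88, adjusted p 0.0541 to 0.0625).

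**Figure D5:**
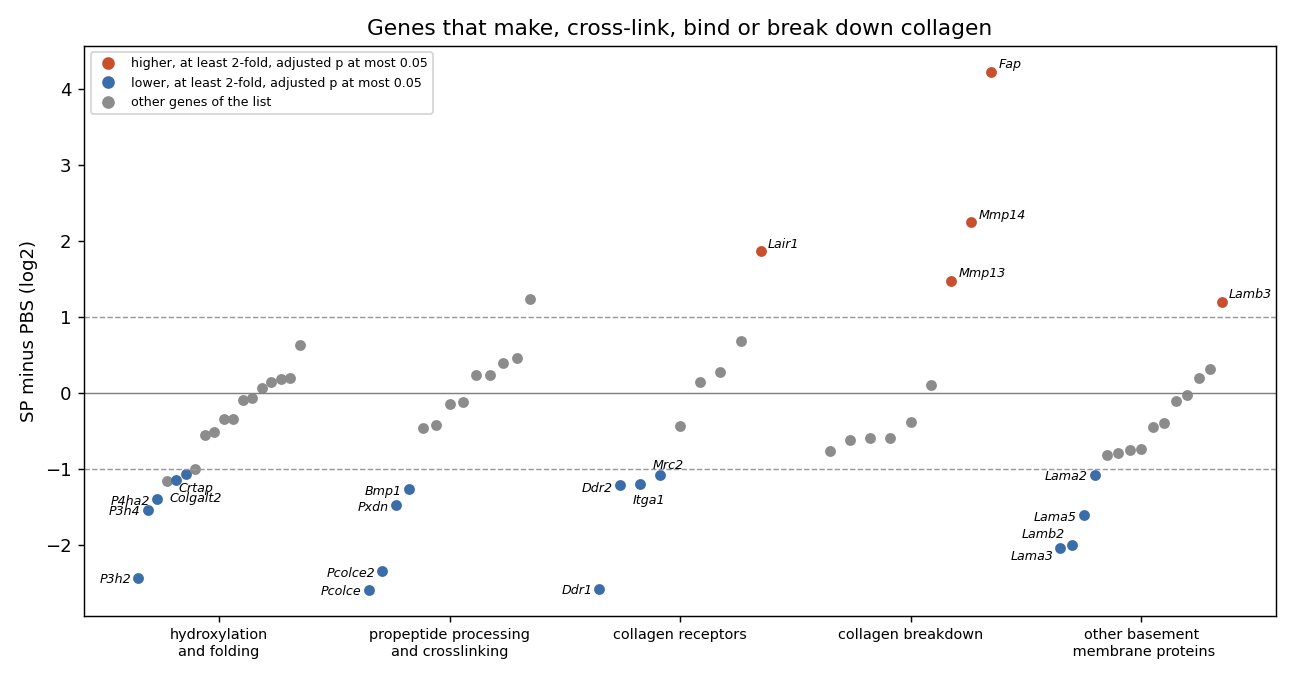
Difference between SP and PBS on the log2 scale for the measured genes of 5 lists; 1 point per gene, coloured where called by limma at 2-fold or more, with dashed lines at 2-fold. Called genes are lower in the first 2 lists (5 and 4 genes), mixed among receptors and basement membrane proteins, and higher among genes of breakdown, where Fap reaches 4.23.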

How the data were processed

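RNA of 8 samples was hybridised to 1 array each. The deposited values are on a log2 scale. Per the labels and methods, the authors made them with RMA, which corrects background, applies quantile normalization and summarizes the probes of each gene, and tools named in the submitters' processing notes are Affymetrix Expression Console and Partek. No detection call accompanied the values, and dim rows understate differences. Rows were compared with limma (version 3.58.1, R 4.3.3; lmFit and eBayes, no covariates, two-sided, Benjamini-Hochberg over 24625 rows) and called at an adjusted p of at most 0.05, with 2-fold (1 log2 unit) as a second limit. A lower limit of fold set the mean of the bright group against the background limit of the dim group. It takes no account of the spread between arrays. Symbols came from RefSeq (GRCm38.p6). Array numbers limit the precision. Members, classes, gene lists and alternatives were chosen with earlier results of these data known. Values in every sample are given for chains called at 2-fold, the 3 brightest of each class and types I, III, IV and VI, and for further chains chosen after their values were seen. The limma fit was tested on simulated data. Alternatives were the methods' t-test, a robust prior with trend, a replicate block, array weights, other scalings, dim rows left out, 1 row per symbol, limma treat, another class for Col15a1 and Col18a1, and leaving out each array. Centring on receptor rows was added after the data were seen.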

Additional observations from a re-analysis of the deposited data

Results flagged for a closer look

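In 4 of 86 groups of 4 arrays, 1 array stood apart by Dixon's ratio (gap to the nearest array over the whole range, above the 95% critical value for 4 arrays); chance gives about 1 in 20. Col4a5 was lowest on SP replicate 2 (ratio 0.931; 4.64, beside 4.94 to 4.96 on the other SP arrays). Col4a6 was highest on PBS replicate 2 (ratio 0.857; 5.74, beside 5.28 to 5.35), and so was Col8a1 (ratio 0.881; 5.99, beside 5.13 to 5.23). Col9a2 was highest on SP replicate 2 (ratio 0.836). Of these, Col4a6, Col8a1 and Col9a2 lay near background in both groups.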

How the results depend on the processing

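The number of chains lower by 2-fold was 1 in each alternative except 3 with arrays centred on receptor rows and 0 with dim rows left out, since 35 chains, Col14a1 among them, are then not tested. The number higher by 2-fold was 1 except 2 with arrays centred on their median and 0 by treat. Centring moved the median difference of all rows from 0.10 to 0.38 (array medians) or -0.11 (receptor rows). The fibrillar median of 0.21 moved to 0.49 with arrays centred on their median and -0.38 with dim rows left out. The type IV median of -0.52 moved to 0.17 with dim rows left out and to -0.18 with Col15a1 and Col18a1 added. The median of the others, 0.15, moved to 0.43 (array medians), 0.025 (quantile normalization), -0.063 (receptor rows) and 0.00056 (dim rows left out). Unequal pairs, 3 of 10, were 0 to 4 on leaving out 1 array. Signs of uncalled chains turned for Col23a1 (-0.21), Col4a1 (-0.057) and Col4a2 (-0.019) with receptor-row centring. Leaving out 1 array gave -0.11 to 0.10 for Col23a1, -0.75 to 0.090 for Col3a1, -0.11 to 0.36 for Col4a1 and -0.069 to 0.39 for Col4a2. Of 184 recomputed values of 11 chains, 171 kept direction and side of the threshold. Most of these chains were not called in the main fit, so keeping their side mostly meant staying uncalled. Over all collagens, 3 of 6 lower calls and 6 of 9 higher calls were lost under at least 1 alternative, not counting limma treat. Chains called in all numbered 6 lower and 9 higher, against 3 and 24 with array-median centring, 8 and 5 after quantile normalization, and 8 and 3 with receptor-row centring; 12, 10 and 9 chains were shared. The methods' t-test ended 2 collagen calls (Col4a3 and Col20a1; adjusted p 0.0503 and 0.0635) and 13 calls of list genes (0.0505 to 0.0948), among them Crtap, Itga1, Ddr2, Lama2 and Mmp8. Quantile normalization ended 5 collagen calls (Col11a1, Col11a2, Col24a1, Col9a1 and Col9a2; adjusted p 0.0745 to 0.338) and 9 list calls, and receptor-row centring 6 and 6. Correlations of deviations between same-numbered samples were 0.016, 0.030, 0.35 and -0.27, and 1 of 4 samples was closest to its own number. The labels do not say whether replicate numbers pair the samples, and these correlations cannot settle it. With a replicate block 1 chain was lower and 1 higher by 2-fold, with 6 and 6 called at any size. The causes of these shifts were not tested. Background also limits the results, since 27 of 43 chains were near it in both groups.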
